A study of Homo sapiens with 6 samples.

Results

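Nuclear receptors are transcription factors that most often answer to small fat-soluble ligands such as steroids, retinoids, thyroid hormone, vitamin D, fatty acids and oxysterols. The 44 members examined here were named by gene symbol as the nuclear receptors other than ESR1, the estrogen receptor gene. No expression value was used as a criterion, although earlier results of these data were known. Of these 44 genes, 42 had a row among the 17939 genes of the expression table, while NR1H4 and RORB were not analysed here. With a mean over all libraries of at least 1 FPKM (fragment counts scaled by transcript length and by the total of mapped fragments) taken as expressed, 22 members passed, out of 11533 genes in all. The other 20 members fell under that level.

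The cells were LY2, an ER+ breast cancer line resistant to tamoxifen, and the study asked how loss of the transcriptional kinase CDK12 changes gene expression in them. There were 2 groups of 3 libraries, which the study describes as biological replicates. The siCDK12 group received a pool of small interfering RNAs against CDK12 and the siCtrl group a non-targeting pool, each at 30 nmol/L with harvest 48 hours later. Both groups shared hormone-depleted medium, earlier growth in 4-hydroxytamoxifen, and a period of serum deprivation without that drug before transfection. A single line and a single siRNA pool limit the model.

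A nuclear receptor binds DNA through a domain of zinc fingers and binds its ligand through a separate pocket. Many members pair with a retinoid X receptor (RXR) on a shared response element, whereas steroid receptors pair with themselves and several orphan receptors can act as single molecules. Within the first zinc finger, a short helix called the P box contacts the bases of the response element and sets which element is read. In breast epithelium the family is best known for the estrogen and progesterone receptors, while retinoid, vitamin D and glucocorticoid receptors are also found there.

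Coding sequence of the first zinc finger is shown for the 6 members that differed between groups and for NR3C1, the only steroid hormone receptor among the 22 expressed members, because this is the stretch that separates the family by target element. Each window of 75 bases runs 5′ to 3′ on the coding strand from the codon of the first cysteine, and the capitals mark the 15 bases of the P box. Positions are hg38 with GENCODE canonical transcripts, every window is coding exon, and the windows of RARG and PPARA are interrupted by an intron, so their coordinates span it.
NR4A1 (chr12:52055127-52055201, plus strand): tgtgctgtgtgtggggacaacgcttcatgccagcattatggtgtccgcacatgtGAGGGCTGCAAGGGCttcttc
RARG (chr12:53215426-53215711, minus strand): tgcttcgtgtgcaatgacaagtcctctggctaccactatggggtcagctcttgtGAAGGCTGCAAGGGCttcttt
NR1H3 (chr11:47260468-47260542, plus strand): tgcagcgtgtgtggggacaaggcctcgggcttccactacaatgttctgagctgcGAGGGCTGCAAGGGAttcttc
PPARA (chr22:46215268-46218271, plus strand): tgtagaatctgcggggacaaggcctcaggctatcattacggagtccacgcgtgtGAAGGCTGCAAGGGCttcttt
NR2F6 (chr19:17244981-17245055, minus strand): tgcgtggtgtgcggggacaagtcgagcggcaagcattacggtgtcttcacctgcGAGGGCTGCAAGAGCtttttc
ESRRA (chr11:64307414-64307488, plus strand): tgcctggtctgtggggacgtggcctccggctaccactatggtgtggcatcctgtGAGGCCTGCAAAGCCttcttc
NR3C1 (chr5:143314018-143314092, minus strand): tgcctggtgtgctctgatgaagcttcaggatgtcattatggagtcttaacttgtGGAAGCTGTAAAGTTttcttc

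The first zinc finger was found in 39 of the 41 members searched. It was not found in NR0B1 and NR0B2, receptors known for lacking this domain. The 39 members fell into 8 groups by the residues their P box encodes. A single P box was shared by 25 members, among them the retinoid, thyroid hormone, vitamin D, PPAR, LXR, REV-ERB and NR4A receptors, although it was spelled in 17 ways at the level of codons. NR4A1, RARG, NR1H3 and PPARA, printed above, all belonged to that group. ESRRA shared its P box with ESRRB and ESRRG, NR2F6 with NR2F1 and NR2F2, and NR3C1 with PGR and NR3C2. Between close relatives the window was identical at 70 of 75 bases for NR2F1 and NR2F2, at 65 bases for RARA and RARG, and at 66 bases for NR1H2 and NR1H3. The 6 members that differed between groups carried 3 of the 8 P boxes. The only other P box among the expressed members was that of NR3C1. The remaining P boxes belonged to members under 1 FPKM, which were not in the test.

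The targeted gene followed the labels. CDK12 was at 2.23, 2.83 and 2.44 FPKM in the siCDK12 libraries and at 11.17, 10.7 and 10.3 FPKM in the siCtrl libraries, so the groups were far apart. ESR1 was 40.4 ± 1.29 FPKM (SD, n = 3) with siCDK12 and 50.9 ± 1.58 FPKM with siCtrl, a log2 fold change of -0.33 (adjusted P = 0.000187). Library FPKM sums lay between 448633 and 461038. The study states a nominal amount of clean reads per sample, but the depth of each library is unknown because the values are not counts. All 8 luminal breast epithelial markers were at 1 FPKM or more, with summed levels of 5257 to 5373 FPKM in siCDK12 libraries and 4830 to 4868 FPKM in siCtrl libraries. None of 3 endothelial and none of 4 leukocyte markers reached 1 FPKM, and CDH5 and CD3E were listed at 0. Of 4 fibroblast markers measured, COL1A1 alone was over 1 FPKM, and the summed level of these markers was 10.6 to 11.2 against 7.73 to 8.56 FPKM. Of 4 basal or myoepithelial markers, 2 were at 1 FPKM or more, with summed levels of 10.16 to 10.33 against 9.8 to 10.57 FPKM. The part of the marker levels in the results below was not tested. In bulk RNA, fewer cells of a type and less RNA per cell cannot be told apart.

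LY2 cells carried a few abundant receptors and a long tail. On the FPKM scale, which divides by transcript length, NR2F6 was the highest member with a mean of 80.1 FPKM over the 6 libraries, above 91.2% of the genes tested. RARA followed at 62.4, NR1H2 at 45.2 and NR4A1 at 43.5 FPKM, and these 4 genes together supplied 50.3% to 54.2% of the summed FPKM of the family in each library. A further 9 members, ESRRA, RARG, VDR, RXRA, NR1D2, NR2C2, RXRB, PPARD and NR3C1, lay between 10.8 and 29.0 FPKM. The remaining 9 expressed members lay between 1.41 and 7.75 FPKM, from NR2C1 down to PPARG. The 20 low members together made up 0.777% to 0.953% of the family's summed FPKM. That sum was 450.2, 451.1 and 452.9 FPKM in the siCDK12 libraries and 411.2, 433.5 and 434.9 FPKM in the siCtrl libraries, so the ranges did not overlap. The largest differences in mean were those of NR4A1 (51.1 against 35.8 FPKM) and NR2F6 (85.1 against 75.1 FPKM). Of the expressed members, 12 had a log2 fold change above 0 and 10 below 0, so the sum does not show a shift across the family.

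**Figure D1:**
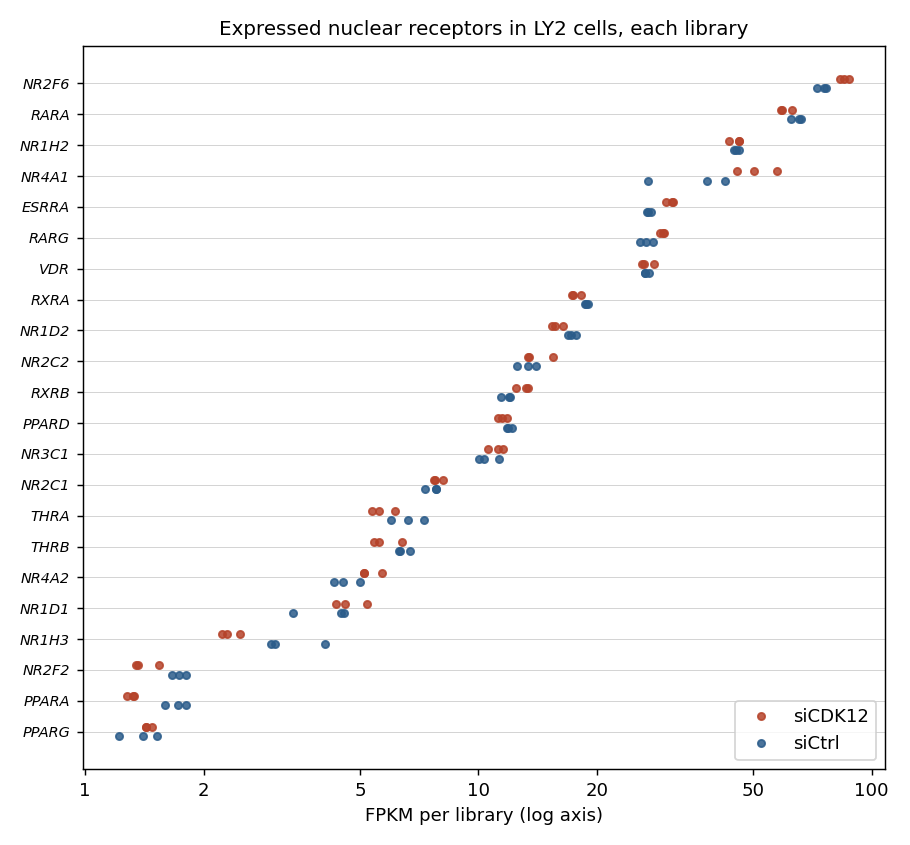
FPKM of the 22 expressed nuclear receptors in each of 6 libraries on a log axis, siCDK12 in red above siCtrl in blue, ordered by mean level. NR2F6 led at a mean of 80.1 FPKM and PPARG was lowest at 1.41 FPKM, and most group differences were small against the range of levels.

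The comparison asked which of these genes differed between siCDK12 and siCtrl. Among the 22 expressed members, NR4A1, NR2F6, ESRRA and RARG rose, and NR1H3 and PPARA fell. The largest rise was that of NR4A1 at 1.43-fold and the largest fall that of NR1H3 to 0.695 of its siCtrl level, while NR2F6, ESRRA and RARG rose 1.13-, 1.14- and 1.10-fold. The other 16 expressed members did not pass the test.

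The 6 called members were 27.3% of those tested, against 28.3% of all 11533 genes, so the family was called about as often as genes in general. The 4 higher members stood against a background of 16.1% of all genes called higher, and the 2 lower members against 12.3% called lower. In 11 members the ranges of the 2 groups did not overlap, which is 50% of the family against 43.1% of all genes tested. The median log2 fold change was 0.02 in the family and 0.03 over all genes, and the median absolute log2 fold change was 0.14 against 0.10. Every log2 fold change was taken from limma, fitted to log2(FPKM + 0.1) over all genes, with Benjamini-Hochberg adjustment and a call at an adjusted P under 0.05. With 3 libraries against 3, an exact permutation test of a single gene cannot go below 0.1.

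The direction split depended on the scaling. With median-ratio scaling of the libraries, 3 members were called higher and 5 lower, against all-gene backgrounds of 11.9% higher and 14.5% lower. NR1D2, RARA and THRA were added as lower, and RARG was no longer called. That scaling moved the share of higher genes among all called genes from 56.7% to 45.1%, and the median of all genes from 0.029 to 0.00456 on the log2 scale. The study's own test, made on counts, reported more genes down than up with siCDK12, the reverse of the main fit here.

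**Figure D2:**
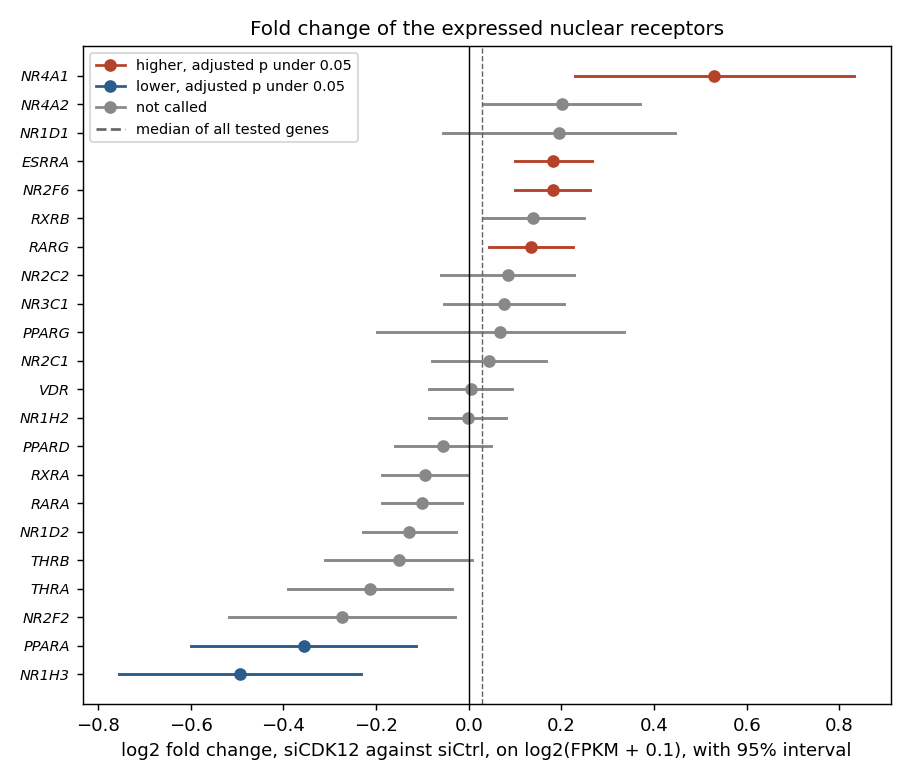
Log2 fold change of each expressed nuclear receptor, siCDK12 against siCtrl, on the log2(FPKM + 0.1) scale with its 95% interval, red for higher, blue for lower and grey for not called; the dashed line is the median of all tested genes. NR4A1 lay farthest to the right at 0.53 and NR1H3 farthest to the left at -0.49.

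Of the 4 expressed retinoid receptors, RARG alone passed the test. RARG, the retinoic acid receptor most often linked to epithelium and skin, was at 29.48, 29.61 and 29.01 FPKM with siCDK12 and at 25.71, 27.83 and 26.71 FPKM with siCtrl. All siCDK12 libraries were above all siCtrl libraries, and the log2 fold change was 0.13 ± 0.0412 (SE, adjusted P = 0.0323). This call held without siCtrl replicate 2 but was lost when any other library was left out, as it was with median-ratio scaling, and adjusted P lay between 0.0276 and 0.0966 over all alternatives. RARA, its more abundant relative, was at 62.75, 59.1 and 58.86 FPKM with siCDK12 and at 62.46, 66.03 and 65.38 FPKM with siCtrl. One siCDK12 library lay inside the siCtrl range, and the difference of -0.10 did not pass (adjusted P = 0.0768), although it passed at -0.13 without siCDK12 replicate 1. The ratio of RARA to RARG within a library was 2.00 to 2.13 with siCDK12 and 2.37 to 2.45 with siCtrl, so the ratio ranges were apart.

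RXRA and RXRB encode the shared dimer partners. RXRA was at 17.38, 18.27 and 17.29 FPKM with siCDK12 and at 18.68, 19.02 and 18.82 FPKM with siCtrl, lower in every library. RXRB was at 13.24, 13.39 and 12.5 FPKM with siCDK12 and at 11.99, 11.43 and 12.07 FPKM with siCtrl, higher in every library. Neither passed the test, with log2 fold changes of -0.09 (adjusted P = 0.12) and 0.14 (adjusted P = 0.0559). Within a library RXRA was 1.31 to 1.38 times RXRB with siCDK12 and 1.56 to 1.66 times with siCtrl. RARB, itself a classical retinoic acid target, and RXRG stayed under 1 FPKM.

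The NR2 group holds orphan receptors that often act as repressors. NR2F6, a COUP-TF relative known for restraining T cell activation and for repressing other receptors, was at 87.46, 84.94 and 82.93 FPKM with siCDK12 and at 72.63, 75.82 and 76.78 FPKM with siCtrl. Its lowest siCDK12 library was above its highest siCtrl library. The means were 85.1 ± 2.27 and 75.1 ± 2.17 FPKM (SD, n = 3 each), with a log2 fold change of 0.18 ± 0.0367 (SE, adjusted P = 0.00451). This call held in all 16 alternatives, with adjusted P from 0.00271 to 0.0245. NR2F2, the COUP-TFII gene, was far lower at 1.36, 1.35 and 1.54 FPKM with siCDK12 against 1.66, 1.73 and 1.8 FPKM with siCtrl. Those ranges did not overlap but the difference of -0.27 did not pass (adjusted P = 0.0893). The testicular receptors NR2C1 and NR2C2 gave overlapping ranges, with log2 fold changes of 0.04 (adjusted P = 0.601) and 0.08 (adjusted P = 0.366).

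The NR4A receptors are immediate early genes, induced within a short time of a growth or stress signal, and are regarded as acting without a classical ligand. NR4A1, also called NUR77, was at 45.35, 50.29 and 57.62 FPKM with siCDK12 and at 26.98, 38.11 and 42.36 FPKM with siCtrl. All 3 siCDK12 libraries were above all 3 siCtrl libraries, although the spread within each group was the widest of the abundant members, with means of 51.1 ± 6.17 and 35.8 ± 7.94 FPKM. The log2 fold change was 0.53 (95% interval 0.23 to 0.83, adjusted P = 0.0155). Without siCDK12 replicate 3, the highest library, it was 0.44 with an adjusted P of 0.0621, and without siCtrl replicate 1, the lowest, it was 0.34 with an adjusted P of 0.0172. The call was also lost with no filter on low values (adjusted P = 0.0666), with no variance trend (adjusted P = 0.0627) and with a robust variance (adjusted P = 0.125). NR4A1 made up 11.3% ± 1.33 of the family's summed FPKM with siCDK12 and 8.36% ± 1.63 with siCtrl.

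NR4A2, or NURR1, was at 5.13, 5.69 and 5.12 FPKM with siCDK12 and at 5.01, 4.3 and 4.53 FPKM with siCtrl. It lay higher in every siCDK12 library without passing, at a log2 fold change of 0.20 (adjusted P = 0.0744), and passed at 0.26 only without siCtrl replicate 1. NR4A3 was under 0.3 FPKM in every library, with 0.14 to 0.2 FPKM under siCDK12 and 0.25 to 0.27 FPKM under siCtrl. Among 15 other immediate early genes, a list chosen after these values were seen, 3 rose and none fell, with 12 not called, to be read against 16.1% of all genes called higher and 28.3% called in either direction. FOSB rose by 0.62, JUN by 0.42 and KLF4 by 0.22 on the log2 scale, with adjusted P of 0.0174, 0.0116 and 0.025. FOS, at 16.4, 13.6 and 21.6 against 12.2, 14.99 and 19.4 FPKM, did not pass (log2 fold change 0.14, adjusted P = 0.558). EGR1 did not pass either, at 0.11 (adjusted P = 0.579). In FOS, EGR1, FOSB and JUN, as in NR4A1, siCtrl replicate 1 was the lowest and siCDK12 replicate 3 the highest library. In KLF4, siCtrl replicate 1 was the lowest as well, but siCDK12 replicate 1 was the highest. The part of these shared library levels in the differences of NR4A1, FOSB, JUN and KLF4 was not tested.

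ESRRA encodes the estrogen-related receptor alpha, which does not bind estradiol and, with the coactivator PGC-1, drives mitochondrial genes. It was at 31.3, 30 and 31.16 FPKM with siCDK12 and at 27.07, 26.89 and 27.49 FPKM with siCtrl. The libraries of each group lay close together and the groups did not overlap, with means of 30.8 ± 0.714 and 27.2 ± 0.308 FPKM. The log2 fold change was 0.18 ± 0.0378 (SE, adjusted P = 0.00512), and the call held in all 16 alternatives, with adjusted P from 0.00387 to 0.0244. In the GENCODE annotation, ESRRA overlaps TRMT112 on the opposite strand by 284 bases. TRMT112 was at 111 and 115 FPKM, a log2 fold change of -0.05 that did not pass (adjusted P = 0.522). Whether reads were counted by strand is not given in the sources used here, so reads from such overlaps cannot be assigned to either gene. The relatives ESRRB and ESRRG were under 0.1 FPKM.

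The liver X receptors sense oxysterols and induce genes of cholesterol export. NR1H3, which encodes LXR alpha, was at 2.3, 2.23 and 2.48 FPKM with siCDK12 and at 2.97, 3.04 and 4.07 FPKM with siCtrl. The groups did not overlap, and siCtrl replicate 3 stood above the other siCtrl libraries. The log2 fold change was -0.49 (95% interval -0.75 to -0.23, adjusted P = 0.0111), and -0.35 at its smallest over the alternatives. The call held in all 15 alternatives that tested it, with adjusted P from 0.00801 to 0.0413. NR1H2, which encodes LXR beta, was at 45.2 ± 1.49 FPKM with siCDK12 and 45.3 ± 0.68 FPKM with siCtrl. Its difference lay between -0.09 and 0.08 on the log2 scale (95% interval, adjusted P = 0.968). The ratio of NR1H2 to NR1H3 was 18.6 to 20.01 in siCDK12 libraries and 11.1 to 15.1 in siCtrl libraries. NR1H3 overlaps ACP2 on the opposite strand by 607 bases in the same annotation, and ACP2 had a log2 fold change of 0.05 that did not pass. NR1I2 and NR1I3, the xenobiotic receptors PXR and CAR, were listed at 0 in all 6 libraries.

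The PPARs bind fatty acids and govern their oxidation and storage. PPARA, the regulator of fatty acid oxidation in liver, was at 1.32, 1.28 and 1.33 FPKM with siCDK12 and at 1.6, 1.72 and 1.8 FPKM with siCtrl. Every siCDK12 library was below every siCtrl library, at a log2 fold change of -0.36 ± 0.11 (SE, adjusted P = 0.0335). That call held without siCtrl replicate 1 but was lost when any other library was left out, and adjusted P lay between 0.00436 and 0.106 over all alternatives. PPARD, the most abundant PPAR here, was at 11.5 ± 0.317 and 11.97 ± 0.214 FPKM, a log2 fold change of -0.06 (adjusted P = 0.409). PPARG, the regulator of fat cell differentiation, was at 1.45 ± 0.0289 and 1.38 ± 0.151 FPKM, a log2 fold change of 0.07 (adjusted P = 0.71).

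**Figure D3:**
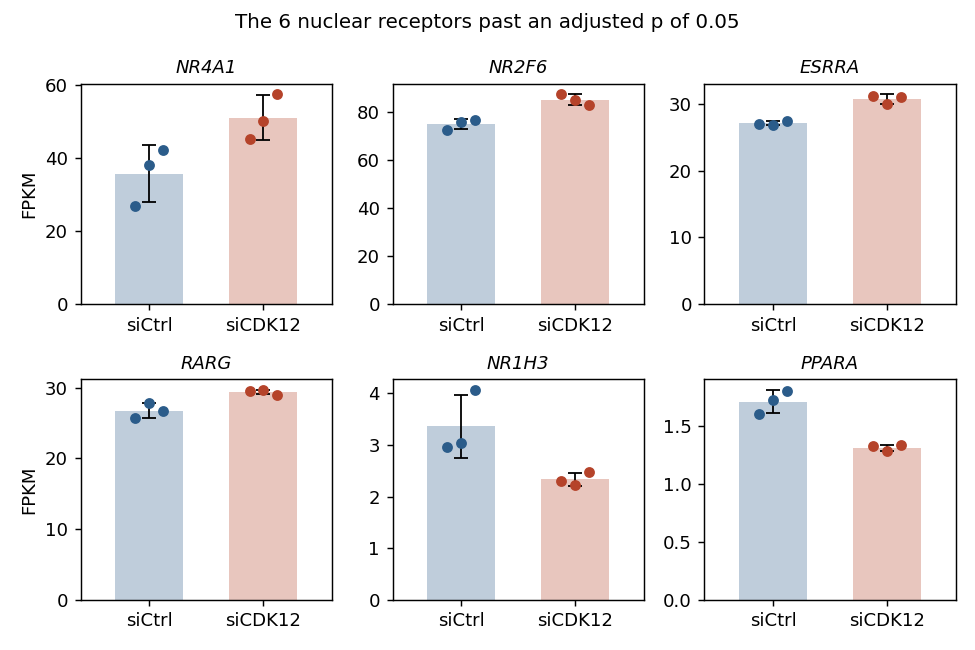
FPKM of the 6 called nuclear receptors with siCtrl and siCDK12, linear axes from 0; bars are means, points the 3 libraries of each group and error bars the SD. NR4A1 had the widest spread within a group (SD of 6.17 and 7.94 FPKM), while the ESRRA libraries lay close together (SD of 0.714 and 0.308 FPKM).

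Among the endocrine receptors of the thyroid and vitamin D group none passed. VDR, the vitamin D receptor, was at 26.8 ± 0.966 and 26.7 ± 0.307 FPKM, with a 95% interval of -0.09 to 0.09 for its log2 fold change (adjusted P = 0.951). THRA, thyroid hormone receptor alpha, was at 5.59, 6.13 and 5.37 FPKM with siCDK12 and at 6, 6.62 and 7.27 FPKM with siCtrl, ranges that overlapped (log2 fold change -0.21, adjusted P = 0.0694). THRB gave -0.15 (adjusted P = 0.141). Leaving out siCtrl replicate 1 brought THRA past the threshold at -0.28, and leaving out siCDK12 replicate 2 did so for THRB at -0.22. THRA was 0.961 to 0.998 times THRB with siCDK12 and 0.893 to 1.15 times with siCtrl, so neither gene predominated in either group.

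REV-ERB receptors are heme-binding repressors of the circadian clock. NR1D2, or REV-ERB beta, was at 15.63, 16.4 and 15.37 FPKM with siCDK12 and at 17.73, 17.22 and 16.87 FPKM with siCtrl. It lay lower in every siCDK12 library, at a log2 fold change of -0.13 that did not pass (adjusted P = 0.0557). NR1D1, or REV-ERB alpha, was at 4.71 ± 0.456 and 4.13 ± 0.656 FPKM, a log2 fold change of 0.19 with overlapping ranges (adjusted P = 0.226). In the GENCODE annotation, NR1D1 and THRA overlap on opposite strands of chromosome 17 at hg38 positions 40092793 to 40093867, a stretch of 1075 bases. THRA also overlaps MED24 on the opposite strand, by 2926 bases. MED24 fell from 23.45 to 20.41 FPKM (log2 fold change -0.20, adjusted P = 0.00391). NR1H2, NR2C2 and RXRB have opposite-strand overlaps in that annotation as well. NR1D2 shares 1306 bases with NKIRAS1 on the opposite strand, and NKIRAS1 fell, from 8.03 to 5.53 FPKM (log2 fold change -0.54, adjusted P = 0.00333). The part of these overlaps in the values of the receptors was not tested.

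Of the steroid receptors examined, NR3C1 alone was expressed. The glucocorticoid receptor it encodes was at 11.1 ± 0.501 FPKM with siCDK12 and 10.6 ± 0.637 FPKM with siCtrl, a log2 fold change of 0.08 (95% interval -0.05 to 0.20, adjusted P = 0.366). PGR, the progesterone receptor gene and a classical estrogen target, was at 0.19, 0.14 and 0.19 FPKM with siCDK12 and at 0.25, 0.34 and 0.23 FPKM with siCtrl. ESR2, estrogen receptor beta, was at 0.13 to 0.39 FPKM over all libraries, and NR3C2, the mineralocorticoid receptor gene, at 0.04 to 0.13 FPKM.

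Of the 20 members under a mean of 1 FPKM, 10 lay between 0.1 and 1 FPKM and 10 below 0.1 FPKM. NR5A2, which encodes LRH-1, was the highest of them at 0.62 to 0.88 FPKM, followed by NR6A1 at 0.52 to 0.66 and HNF4G at 0.34 to 0.7 FPKM. NR2E3, the photoreceptor cell receptor, varied most among them, at 0.03, 0.28 and 0.34 FPKM with siCDK12 and at 0.37, 0.59 and 0.43 FPKM with siCtrl. RORA was at 0.12 to 0.23, NR2F1 at 0.1 to 0.26 and RARB at 0.09 to 0.23 FPKM. NR0B2, ESRRB, RXRG, ESRRG and NR0B1 had means below 0.1 FPKM and were above 0 in at least 1 library, while NR1I2, NR1I3 and HNF4A were listed at 0 in every library. These values are printed to 2 decimals, so the lowest levels carry a single significant digit.

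With no filter on low values, 17 of these 20 members could be tested and 1 was called, NR5A1 (adjusted P = 0.0304), against 8.54% of all genes called higher and 7.34% called lower in that fit. NR5A1, the steroidogenic factor gene, was at 0.04, 0.04 and 0.06 FPKM with siCDK12 and was listed at 0 in all siCtrl libraries, so no fold is given. PGR (adjusted P = 0.122), NR4A3 (adjusted P = 0.113) and NR2E3 (adjusted P = 0.173) were each lower in every siCDK12 library and did not pass in that fit.

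**Figure D4:**
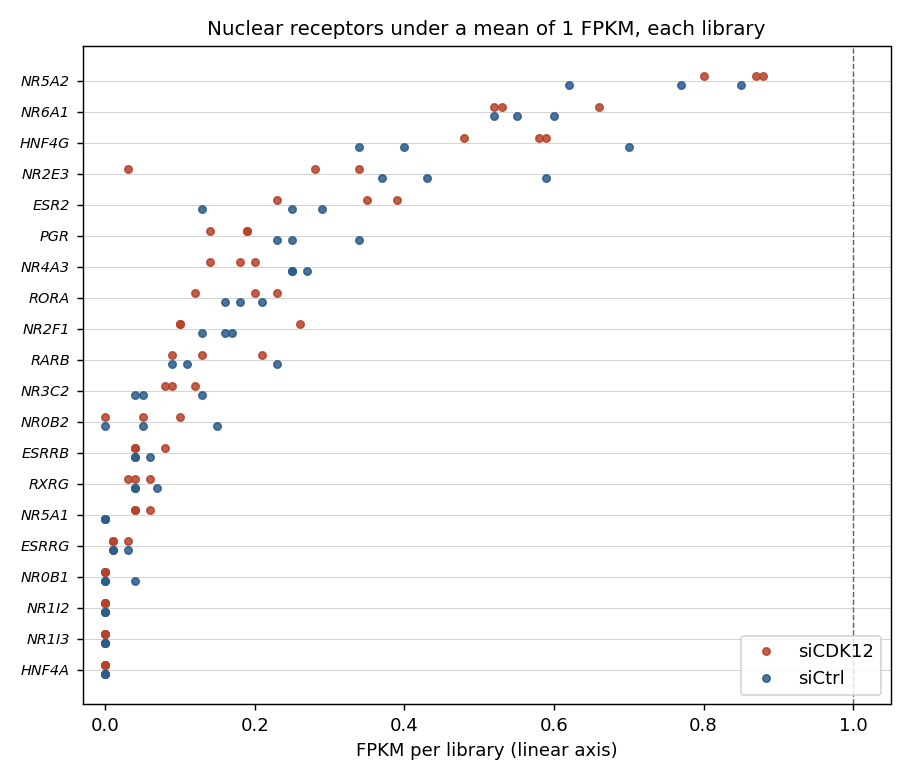
FPKM of the 20 nuclear receptors under a mean of 1 FPKM in each library, linear axis, siCDK12 in red above siCtrl in blue; the dashed line marks 1 FPKM. NR5A2 reached 0.88 FPKM at most, and NR1I2, NR1I3 and HNF4A were at 0 throughout.

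Targets and partners of the receptors were read from 8 lists with 115 distinct genes, of which 67 were expressed. Of these 67 genes, 15 rose and 11 fell, so that 38.8% were called against 28.3% of all genes, and their median log2 fold change was 0.02 against 0.03. The lists were written with earlier results of these data known, so the higher share called cannot be read as a result about the lists. Directions were mixed within nearly every list, and none of the 10 xenobiotic and bile acid genes was expressed.

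Among 8 expressed LXR targets, 2 rose and 1 fell, with a median of -0.12. LPCAT3, a phospholipid remodeling enzyme, was at 24.54, 23.4 and 24.75 FPKM with siCDK12 and at 19.33, 18.24 and 20.81 FPKM with siCtrl, a rise of 0.32 (adjusted P = 0.00141). The sterol exporter ABCG1 rose by 0.16 (adjusted P = 0.0194), a call lost without siCDK12 replicate 1, siCtrl replicate 1 or siCtrl replicate 2. The desaturase gene SCD fell by 0.15 (adjusted P = 0.0104), which was not called without siCDK12 replicate 3. Thus LXR targets moved in both directions where NR1H3 fell and NR1H2 did not pass. APOE, an apolipoprotein gene, was at 2.74 against 3.66 FPKM and did not pass (adjusted P = 0.0756).

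Of 13 expressed PPAR targets, 2 rose and 4 fell, with a median of 0.01. All 6 serve fatty acid oxidation. ACAA2, a mitochondrial thiolase, rose by 0.27 (adjusted P = 0.00177). ETFDH, which passes electrons from fatty acid oxidation to the respiratory chain, fell by 0.35 (adjusted P = 0.00356), and the medium-chain dehydrogenase gene ACADM fell by 0.22 (adjusted P = 0.00747). HADHA fell as well. CPT2 rose, a call lost without replicate 1 or 2 of either group.

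In the PGC-1 and ERR list, 2 of 13 genes rose and 1 fell, with a median of -0.04. PPARGC1A, which encodes the ERR coactivator PGC-1 alpha, was at 1.5, 1.58 and 1.44 FPKM with siCDK12 and at 0.76, 0.8 and 0.92 FPKM with siCtrl. This was the largest change among the expressed genes of the lists, a rise of 0.80 at a low level (adjusted P = 0.00148). Its siCtrl mean of 0.827 FPKM was under 1 FPKM, so PPARGC1A passed the filter only through its siCDK12 level. The rise was 0.457 at its smallest over the alternatives. TFAM, the mitochondrial transcription factor, rose by 0.22 (adjusted P = 0.0138, not called without siCtrl replicate 2). The other 10 genes, respiratory chain and Krebs cycle subunits among them, did not pass.

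The clock list had 5 higher and 3 lower genes of 17, with a median of 0.13. CIART, a repressor of the clock, was at 24.13, 22.44 and 22.16 FPKM with siCDK12 and at 15.95, 17.25 and 17.84 FPKM with siCtrl, a rise of 0.43 (adjusted P = 0.000242). PER3 fell by 0.33 (adjusted P = 0.0049) and BHLHE40 by 0.15 (adjusted P = 0.0088). The clock output gene DBP, CRY1 and the casein kinases CSNK1D and CSNK1E also rose, and CLOCK fell. The calls of CIART, PER3, BHLHE40 and CSNK1D held whichever library was left out. CLOCK was not called without siCDK12 replicate 1 or 3 or without siCtrl replicate 1 or 2, and DBP was not called without siCDK12 replicate 3 or siCtrl replicate 2. CRY1 was not called without siCDK12 replicate 1, nor CSNK1E without siCDK12 replicate 2.

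Hormone-responsive genes were fewer. In the glucocorticoid and progestin list 2 of 9 genes rose and 1 fell, with a median of 0.11: ERRFI1 rose by 0.34 (adjusted P = 0.00171), TSC22D3 by 0.16 (adjusted P = 0.0115), and SGK1 fell by 0.40 (adjusted P = 0.0384). The SGK1 call was lost when replicate 2 or 3 of either group was left out. FKBP5, a sensitive glucocorticoid target, was at 14.3 against 14.1 FPKM and did not pass. Of 3 expressed thyroid and vitamin D genes, DIO3, the deiodinase that inactivates thyroid hormone, rose from 2.25, 1.8 and 2.35 FPKM to 3.12, 3.39 and 3.21 FPKM (log2 fold change 0.59, adjusted P = 0.00244), and the corepressor gene HR fell by 0.18 (adjusted P = 0.0131, not called without siCDK12 replicate 3 or siCtrl replicate 2). Of 5 expressed retinoid genes, CRABP2, which carries retinoic acid to its receptor, rose by 0.12 (adjusted P = 0.0354), a call lost in 4 of the 6 fits that left out 1 library, namely replicates 1 and 3 of siCDK12 and replicates 1 and 2 of siCtrl.

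**Figure D5:**
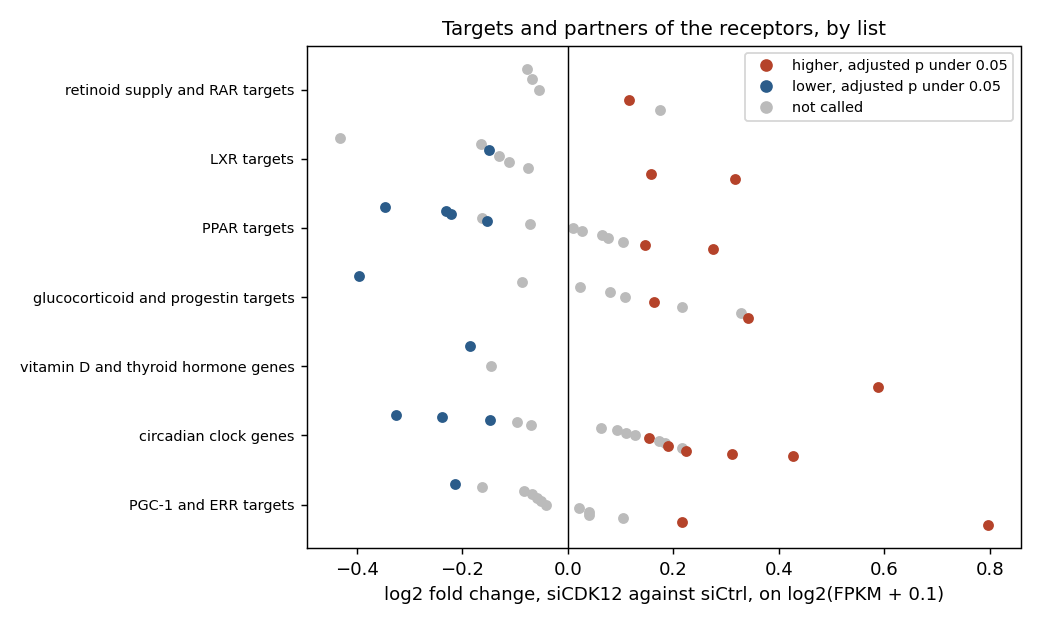
Log2 fold change, siCDK12 against siCtrl on the log2(FPKM + 0.1) scale, of each expressed gene in 7 lists of receptor targets and partners; red is higher, blue lower and grey not called. PPARGC1A, with a siCtrl mean under 1 FPKM, lay farthest to the right at 0.80, and all lists but the retinoid list held calls in both directions.

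CDK12 is best known for its role in transcription of long genes, so gene span was set beside the fold changes as a description. Across the 22 expressed members, Spearman's rho between log2 fold change and span was -0.32, and across 11525 genes it was -0.05; the points share the same libraries and are genes, not replicates. The hexamer AGGTCA, the core of many receptor elements, was searched on both strands of RefSeq promoter windows of GRCh38.p14. It was present in 5 of 42 windows of expressed members, or 11.9%, against 13.8% of all 35116 windows. The expressed members with a match were NR1H3, PPARG and RARA.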

How the data were processed

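Total RNA of LY2 cells (3 siCDK12 and 3 siCtrl libraries) was sequenced as paired-end reads on a BGISEQ-500. According to the study's methods, the authors aligned reads to GRCh38 with Bowtie2 and estimated expression with RSEM, and the FPKM values they deposited, 1 column per library with 2 decimals, were used here. FPKM are not counts, so the count test of the study (DESeq2) was not run. Genes averaging 1 FPKM or more entered limma 3.58.1 (R 4.3.3) on log2(FPKM + 0.1), with a variance trend, all 6 libraries, no covariate and Benjamini-Hochberg adjustment over 11533 genes. The fit was tested on simulated data. Members and lists were chosen with earlier results of these data known, and the immediate early list was added afterwards.

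Values in every library are given for called members and for expressed members whose groups do not overlap, and up to 3 called genes with the smallest P are described per list, with a few others named for context; some listed genes are not reported here by name. Other pseudocounts (1 and 0.01), no filter, a minimum of 5 FPKM, equal FPKM sums, median-ratio and quantile scaling, no variance trend, a robust variance, a replicate block and leaving out each library were the alternatives. P-values measure only the spread between these samples. Python 3.11.15 was used for tables and sequences.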

Additional observations from a re-analysis of the deposited data

How the results depend on the processing

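No called member and no called list gene changed direction under the alternatives that tested it. The number of higher members was 2 without the variance trend, against 4, and ran from 2 to 4 when 1 library was left out, the lowest being without siCDK12 replicate 3. The number of lower members was 0 with a minimum of 5 FPKM, which removes both called genes from the test, 5 with median-ratio scaling, 5 with quantile normalization and 1 to 3 when 1 library was left out. With the replicate block 3 members were higher and 1 was lower, RARG and PPARA being lost; the cause was not tested. Adjusted P of NR4A1 ran from 0.00114, with the replicate block, to 0.125, with the robust variance. Listed genes called lower ran from 7 to 12 when 1 library was left out, against 11 with all libraries, the lowest being without siCDK12 replicate 3. Over all genes, 1853 were called higher, and 1207 without that library. Deviations from the group mean over all tested genes correlated at -0.00287, 0.0197 and -0.0279 between same-numbered libraries. Between differently numbered libraries they correlated at -0.0963 to 0.0955. These values cannot show whether the libraries were prepared in pairs, because single genes can follow replicate number without moving them. Without the depth of each library, the precision of the low members cannot be stated.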
